A study of Danio rerio with 17 samples.

Results

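The response of female zebrafish liver to dietary carbohydrate was examined by comparing 5 females fed a diet with 25% carbohydrate with 5 females fed a diet with 0% carbohydrate. These were 10 of the 17 arrays of a study that crossed sex with the 2 diets, and they were chosen by the sex and diet in the sample titles; male arrays enter one alternative fit and no comparison. Females on 25% were fish 3, 20, 24, 49 and 51, and females on 0% were fish 7, 8, 10, 25 and 27. Each array carried total RNA from the liver of 1 fish, extracted with TRIZOL and labelled with biotin. Strain, age, length of feeding and what replaced the carbohydrate in the 0% diet are not given in the sources used here. The study counts each fish as a biological replicate. The labels give no tank or batch, so any shared by the fish of one diet cannot be told apart from the diet.

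The liver takes up glucose after a meal, stores part of it as glycogen and turns part of it into fat, a synthesis that consumes NADPH made by malic enzyme and the pentose phosphate pathway. Without dietary carbohydrate it makes glucose by gluconeogenesis, largely from amino acids. In female fish the liver also secretes vitellogenin, the yolk precursor, under oestrogen, and the ovary deposits it in growing oocytes. The oocytes store maternal RNAs for the early embryo and are wrapped in a coat of zona pellucida proteins, whose genes are expressed in the ovary in zebrafish.

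All values are levels on the deposited log2 scale, and differences are 25% minus 0% with their standard error from a linear model, so that 1 means a doubling. Array medians lay between 3.52 and 3.61, and arrays correlated at 0.968 to 0.979 within 25%, at 0.971 to 0.979 within 0% and at 0.942 to 0.979 between the diets. The 47 measured hepatocyte markers averaged 10.65 ± 0.13 on 25% and 10.62 ± 0.09 on 0% (SD, n = 5 each), far above the array medians. The table has no detection calls, so levels near or below the array median may be background, and differences measured from them are inexact in size.

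Of 15502 probe sets 297, or 1.92%, passed an adjusted p of 0.05 in limma with Benjamini-Hochberg adjustment. Of these, 262 (1.69% of those tested) were higher on 25% and 35 (0.226%) were lower. The 2 directions differed in size as well as number. Rises had a median of 1.45, with 166 of them at least 2-fold and 97 at least 4-fold. Falls had a median of -0.50, and 2 were at least 2-fold. The probe sets that rose had a median level of 5.52 on 25% and 3.76 on 0%, the latter near the array medians of 3.52 to 3.61. In 143 of them at least 3 of the 5 levels on 0% were under the array median. An array median is the middle of all probe sets, so such levels are common and not particular to the rises. Of the 1145 probe sets that averaged at least 7 on 0%, 7 rose and 6 fell. The diet groups did not overlap in 252 of the 262 rises and in all 35 falls, against 2.75% and 1.34% of all probe sets tested in those directions (4.08% in either). The number of calls varied with the fish left out: 136 passed without fish 27, 142 without fish 7, 158 without fish 10, 155 without fish 24 and 194 without fish 51. It was 228 without fish 49, 245 without fish 8, 260 without fish 20, 275 without fish 25 and 319 without fish 3. Each such fit had 1 fish fewer, and the cause of the changes was not tested. Falls numbered 8 to 18 without fish 7, 8, 10, 24, 27 or 51 in turn and 60 without fish 25.

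**Figure D1:**
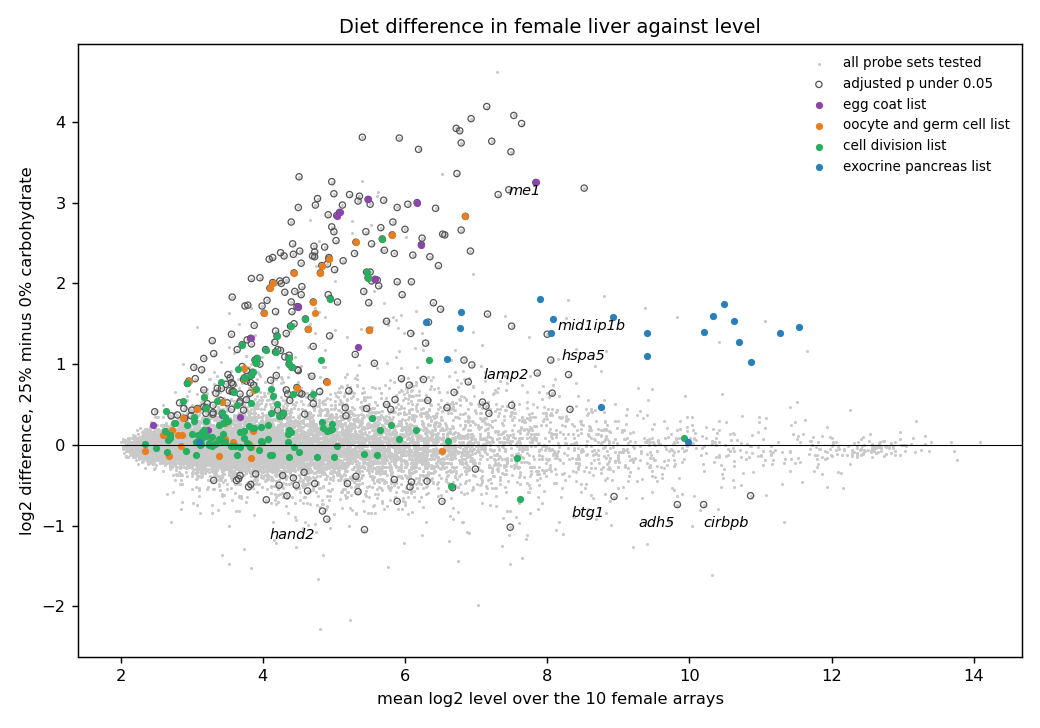
Difference in level between females on 25% and on 0% carbohydrate (vertical axis, log2) against the mean level over the 10 arrays (horizontal axis, log2) for 15502 probe sets, with called probe sets ringed and the probe sets of 4 gene lists coloured. The 97 rises of at least 4-fold include egg coat and oocyte genes of low to middle level, whereas the exocrine pancreas genes lie higher without passing the test and the 35 falls are small.

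Genes of the egg and its coat were higher in livers of females on 25%. By the brightest probe set of each gene 195 genes (2.22%) passed, 174 of them higher. In these terms 9 of 14 measured egg coat genes and 20 of 45 oocyte and germ cell genes rose and none fell, against 1.98% higher and 0.239% lower among all 8793 genes. All lists were chosen with earlier results of these data known, so such shares describe the data and are not independent support. The median difference was 1.88 for egg coat genes and 0.59 for oocyte genes, against -0.019 over all genes. Egg coat and oocyte genes together accounted for 29 of the 174 genes that rose. The egg coat list left out zp3.1, another zona pellucida gene, so these counts do not include it. In the design cluster of zp3.1, 5 probe sets were called higher, 3 of them with a design suffix. All fish in both groups were labelled liver; in a bulk sample, fewer cells of a type and less RNA per cell cannot be told apart.

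The egg coat list averaged 5.52, 5.35, 6.0, 5.6 and 6.22 in fish 3, 20, 24, 49 and 51 on 25%, against 3.67, 4.74, 3.43, 4.34 and 3.62 in fish 7, 8, 10, 25 and 27 on 0%. The lowest fish on 25% stood above the highest on 0%, and fish 8 and fish 25 stood apart from the other fish on 0%. The same order of fish is used for all values below. Among the coat genes zp2.6 had levels of 9.11, 8.90, 9.75, 9.60 and 9.97 on 25%, against 5.20, 8.19, 4.95, 7.54 and 5.18 on 0%, a difference of 3.25 ± 0.63 (adjusted p = 0.0284 in limma). Fish 8 came within 1 log2 unit of the 25% group for this gene, and the call was lost with array weights and when any of 6 of the 10 fish was left out (highest adjusted p = 0.0876). The calls of zp3a.1, at 3.04 ± 0.41, zpax1, at 3.00 ± 0.48, and zpax4, at 2.88 ± 0.44, were kept whichever fish was left out. The other coat genes that rose included zp3a.2 by 2.84 ± 0.37, zp3b by 2.05 ± 0.31 and zp3c by 1.32 ± 0.15. On 0%, all 5 levels of zp3c and 3 of 5 for each of zp3a.1, zpax4 and zp3a.2 were under the array median. The 5 coat genes that did not pass differed by 0.18 to 1.21, so that all 14 differences were above 0.

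Of the 20 oocyte genes that rose, zar1, a zygote arrest factor that binds maternal RNAs, had levels of 5.68, 5.78, 6.56, 5.82 and 6.54 on 25%, against 3.8, 4.28, 3.42, 4.05 and 3.34 on 0%. Every fish on 25% lay more than 1 log2 unit above every fish on 0%, and the difference was 2.3 ± 0.24 (adjusted p = 0.00419). Buc, which organises the Balbiani body of the early oocyte, rose by 2.01 ± 0.22, although its 5 levels on 0% were under the array median. H1m, the maternal linker histone, rose by 2.6 ± 0.40. Btg4 at 2.51 and cpeb1b at 2.13, which in mouse and frog act on the stability and translation of maternal RNA, and the maternal transcription factor genes nanog at 1.77 and pou5f3 at 1.63 also rose; these 4 were chosen after their values were seen. Cyclin B1, ccnb1, whose protein drives entry into meiotic and mitotic division, had levels of 6.53, 6.64, 7.12, 7.23 and 7.24 on 25%, against 3.75, 5.30, 3.93, 4.91 and 4.12 on 0%, and rose by 2.55 ± 0.30. Its probe set carries the suffix given to designs that match several transcripts. The germ line cyclin gene ccna1 rose by 2.07 ± 0.26.

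The other 25 oocyte and germ cell genes did not pass. Ddx4, the vasa helicase of germ cells, differed by 0.12 ± 0.07 (adjusted p = 0.445) with all 10 fish below the array median. Nobox, a transcription factor of early oocytes, differed by -0.16 ± 0.11, sycp3 of the synaptonemal complex by -0.02 and piwil1 by 0.02, and these 3 were chosen after their values were seen. Bmp15, an oocyte growth factor also chosen so, differed by 0.09 by one probe set and by 0.35 by another, with all fish below the array median in both. In the list as a whole 38 of 45 differences were above 0, and 11 genes lay below the array median in all 10 fish. No probe set named gdf9 alone, so that gene has no value here. Of 14 ovarian follicle genes, expressed in the cells that surround the oocyte, 1 rose: the side chain cleavage gene cyp11a1.1, by 0.43 ± 0.08 with all 10 fish below the array median, a call lost in 6 of 10 fits that left out 1 fish (highest adjusted p = 0.08). Among all genes 1.98% were called higher. The follicle list averaged 3.14 on 25% and 3.19 on 0%, and 9 of its 14 genes lay below the array median in all 10 fish. None of 20 testis genes passed, with a median of -0.10, and 12 of them lay below the array median in all 10 fish. Genes at such levels may be background, so these 2 lists say little about a change.

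Of 127 measured cell division genes 23 rose and none fell, against 1.98% higher and 0.239% lower among all genes, with a median difference of 0.19 and 102 differences above 0; 2 of the 23, ccnb1 and ccna1, are also in the oocyte list. The list mean was 4.06, 4.15, 4.26, 4.31 and 4.45 on 25%, against 3.84, 3.96, 3.85, 3.91 and 3.87 on 0%, with no overlap between the diets. Dnmt1, the maintenance DNA methyltransferase, rose by 1.56 ± 0.19 (adjusted p = 0.00467). Further members, chosen after their values were seen, were cyclin B2 (ccnb2) at 1.81, the mitotic kinase plk1 at 1.47 and the spindle checkpoint gene mad2l1 at 1.35. The mitotic kinase gene cdk1 differed by 0.49 ± 0.15 and did not pass (adjusted p = 0.169). Without fish 10 or fish 7 the list had 11 genes higher, without fish 27 it had 13 and without fish 24 it had 14. Across the 10 fits that left out 1 fish, the counts were 8 to 9 for egg coat genes, 14 to 22 for oocyte genes and 11 to 28 for cell division genes.

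**Figure D2:**
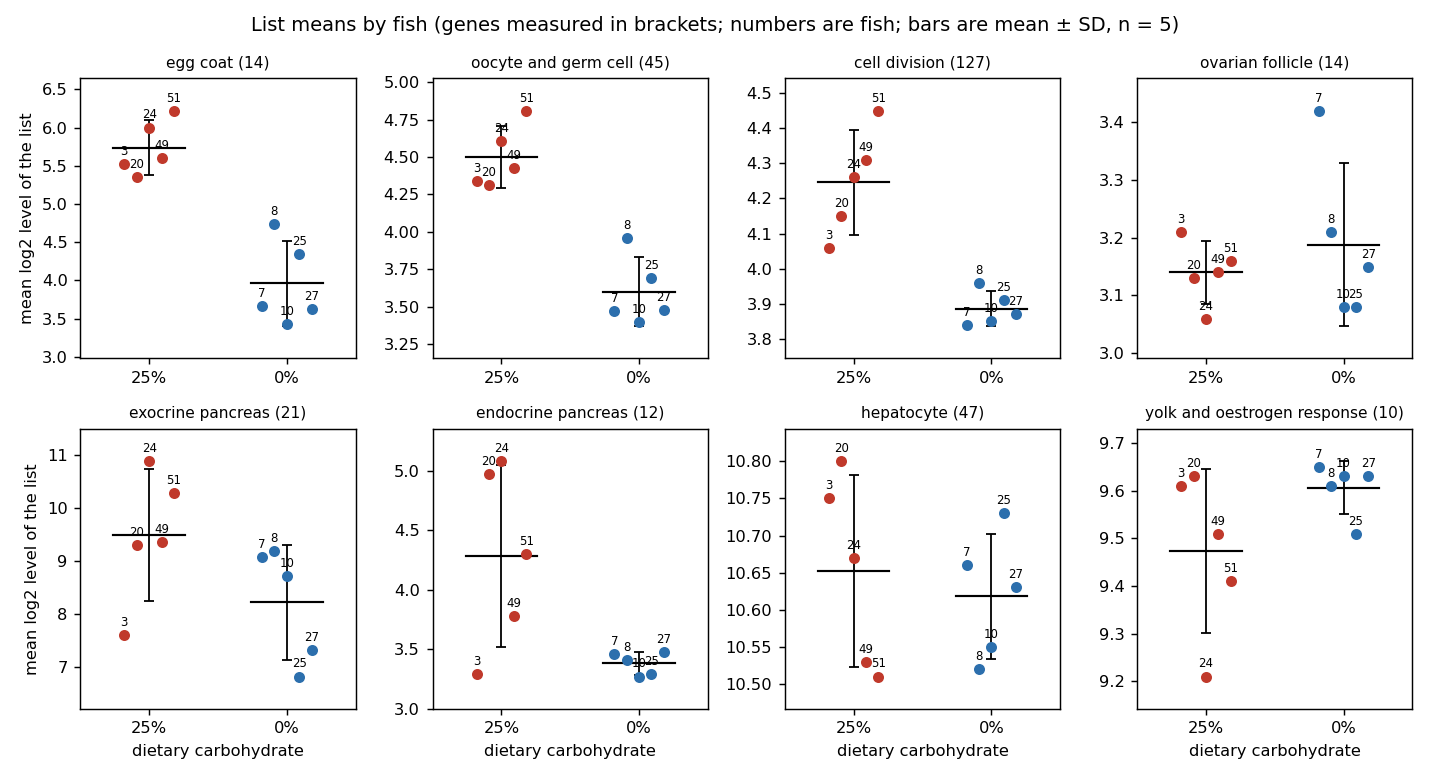
Mean log2 level of 8 gene lists (vertical axes, with a separate scale for each list) in each fish on 25% and on 0% carbohydrate, with fish numbers, group means and SD (n = 5 each). The egg coat, oocyte and cell division means of the 2 diets do not overlap, and fish 8 and fish 25 are the highest of the fish on 0% in all 3, while the pancreas, hepatocyte, follicle and yolk lists overlap.

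Genes of other tissues near the liver were examined beside these. All 21 exocrine pancreas genes, most of which encode digestive enzymes, had differences above 0 with a median of 1.4, but none passed and none separated the diets. The list averaged 7.61, 9.31, 10.88, 9.36 and 10.29 on 25%, against 9.08, 9.20, 8.72, 6.83 and 7.32 on 0%. Fish 3 on 25% lay below 3 of the fish on 0%, and the 2 fish on 0% with the lowest pancreas means were fish 25 and fish 27. The trypsin gene prss1 differed by 1.38 ± 0.66 (adjusted p = 0.373), the elastase gene cela1.1 by 1.52 ± 0.69 and the carboxypeptidase gene cpa5 by 1.59 ± 0.74. Fish 25, second highest of the fish on 0% in egg coat genes, was the lowest in pancreas genes, and fish 3 was the lowest of the fish on 25% in pancreas genes with an egg coat mean of 5.52.

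Endocrine pancreas genes separated the fish on 25% from each other. The insulin gene ins had levels of 4.51, 10.58, 10.74, 6.52 and 8.67 on 25%, against 5.06, 4.85, 4.53, 4.83 and 4.95 on 0%. It was higher in 4 of the 5 fish on 25% than in any fish on 0%, but not in fish 3, and the difference of 3.36 ± 1.06 did not pass (adjusted p = 0.186). The somatostatin genes sst2, at 2.77 ± 0.71, and sst1.1, at 2.53 ± 0.89, did not pass either. The glucagon gene gcga differed by 2.21 ± 0.84 and did not pass (adjusted p = 0.272), with 3 of its 5 levels on 0% under the array median. On 25%, each of these hormone genes was highest in fish 20 and fish 24 and lowest in fish 3. They were chosen after their values were seen. The remaining genes of the list of 12 differed by -0.22 to 0.15, and the list median was 0.10. The part of pancreas RNA in the other differences was not tested.

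Among intestinal markers 1 of 26 passed, the chitinase gene chia.4, which rose by 2.38 ± 0.31 with 4 of the 5 fish on 0% below the array median; the list median was 0.26. Of 47 stroma and muscle genes, thy1, a surface glycoprotein of stromal and other cells, rose by 2.64 ± 0.33, and hand2, a transcription factor of heart and stromal precursors, fell by 0.92 on the log2 scale, with a list median of -0.14. None of 18 red blood cell genes passed, and none of 28 in the leukocyte list, which also holds endothelial genes such as kdrl and tie1. In the leukocyte list 5 differences were above 0, and the median was -0.20. Its mean was 5.36 in fish 49 and 4.16 to 4.44 in the other fish on 25%, against 4.55 to 5.08 on 0%. Among all genes 1.98% were called higher and 0.239% lower.

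Among the genes that rose, the fish on 0% kept an order. Fish 8 was the highest of the 5 in 182 of the 262 probe sets (69.5%) and fish 25 in 46 (17.6%), whereas over all 15502 probe sets fish 8 was highest in 17.1% and fish 25 in 19.8%. Fish 8 and fish 25 both exceeded fish 7, 10 and 27 in 174 of the 262 (66.4%), against 8.01% of all probe sets. The comparison of these fish was made after their values were seen. The order held for zar1 and for several genes outside the egg lists. Among these were lamp2, scarb1, map1lc3c, uchl1, tuba4l and chia.4, whose differences are given in other paragraphs, and the 2 genes that follow. Ctss2.1, a cathepsin S gene, had levels of 7.82, 7.58, 8.06, 8.66 and 8.49 on 25%, against 4.46, 6.84, 5.92, 6.42 and 4.97 on 0%. It rose by 2.4 ± 0.43, and its call was lost in 4 of 10 fits that left out 1 fish (highest adjusted p = 0.0617). Tmsb5, a thymosin gene whose product binds actin, had levels of 6.13, 5.44, 6.82, 5.56 and 7.52 on 25%, against 2.79, 4.01, 2.90, 3.86 and 2.68 on 0%, and rose by 3.05 ± 0.43. For me1 and hspa5, described below, the order did not hold. Fish 25 was the highest of the fish on 0% for both, while fish 8 was the lowest by a small margin.

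**Figure D3:**
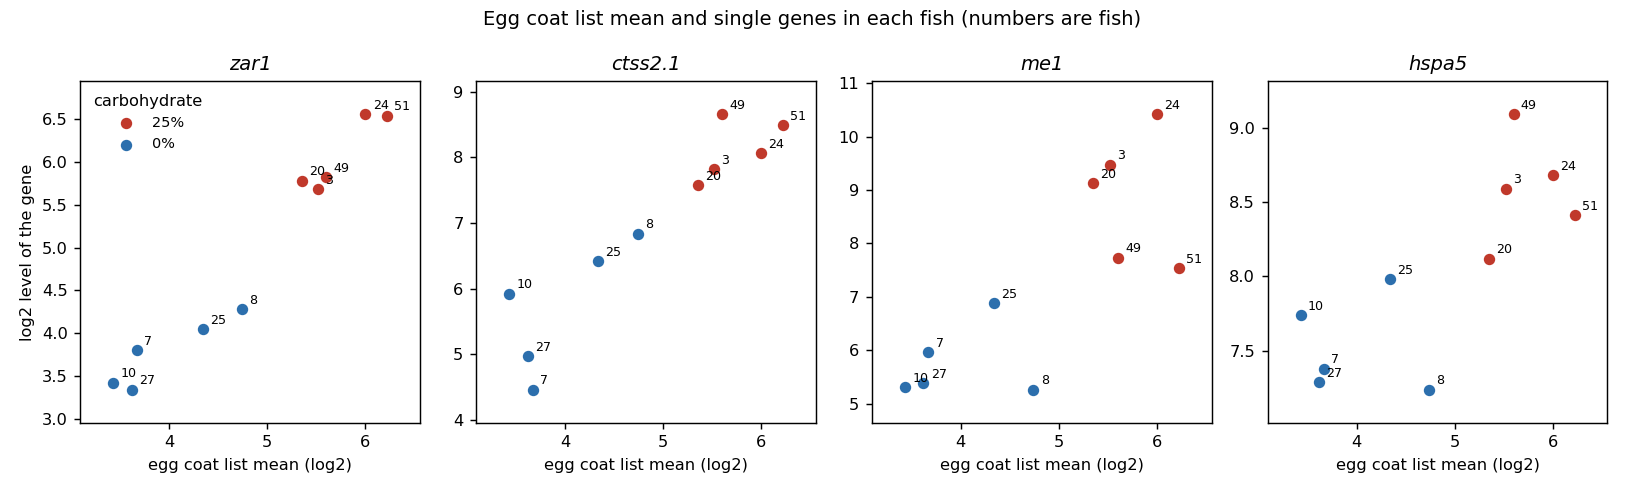
Level of zar1, ctss2.1, me1 and hspa5 (vertical axes, log2) against the egg coat list mean (horizontal axes, log2) in each of the 10 fish. On 0%, fish 8 and fish 25 lead the others in egg coat genes, zar1 and ctss2.1. For me1 and hspa5 fish 25 is the highest of its group, and fish 8 has the lowest levels, 5.26 and 7.24, by a small margin.

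Of 44 genes of fat synthesis and NADPH supply, 4 rose and none fell, against 1.98% higher and 0.239% lower among all genes, with a median difference of 0.17 and a list mean of 5.79 ± 0.18 on 25% and 5.50 ± 0.10 on 0% (SD, n = 5 each). Me1, the cytosolic malic enzyme that turns malate into pyruvate and makes NADPH, had levels of 9.47, 9.13, 10.42, 7.73 and 7.54 on 25%, against 5.96, 5.26, 5.31, 6.88 and 5.38 on 0%. The groups did not overlap, fish 24 stood highest on 25% and fish 25 on 0%, and the mean was 8.58-fold higher on 25% (difference 3.10 ± 0.55, adjusted p = 0.0186). A second me1 probe set separated the diets as well, at 4.29-fold, without passing (adjusted p = 0.0618). The call of the first was lost without fish 7, 10 or 27 (highest adjusted p = 0.0637).

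Mid1ip1b, a relative of mammalian MID1IP1, which activates acetyl-CoA carboxylase, had levels of 8.53, 9.17, 8.64, 8.70 and 8.37 on 25%, against 6.86, 7.05, 7.18, 8.25 and 7.21 on 0%. Fish 25 stood about 1 log2 unit above the other fish on 0% and just below the lowest fish on 25%, and the difference was 1.37 ± 0.25 (adjusted p = 0.021). A second probe set of the gene differed 1.17-fold (adjusted p = 0.516), the call was lost when probe sets of a gene were averaged, and 5 of 10 fits that left out 1 fish lost it (highest adjusted p = 0.0697). The paralogue mid1ip1l differed by 0.20 ± 0.16 and did not pass. Elovl6l, a fatty acid elongase gene, rose by 1.13 ± 0.13 (adjusted p = 0.00419) with all 5 fish on 0% below the array median. Txnipb, related to the glucose-induced thioredoxin-interacting protein of mammals, rose by 0.47 ± 0.10 from levels that were also below the median on 0%, and was chosen after its values were seen.

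Pgd, acaca, scd, aclya and slc13a5a did not pass. The malate dehydrogenase gene mdh1aa, described below, passed as lower by a probe set other than its brightest. Pgd, which makes NADPH in the pentose phosphate pathway, had levels of 5.82, 7.13, 8.09, 7.33 and 5.41 on 25%, against 6.0, 5.41, 6.12, 6.35 and 6.46 on 0%. Fish 3 and 51 lay within the range of the 0% group or at its lower end while fish 20, 24 and 49 lay above it, and the difference was 0.69 ± 0.47 (adjusted p = 0.535). Acaca, acetyl-CoA carboxylase, had levels of 7.13, 9.98, 9.48, 8.74 and 9.10 on 25%, against 7.11, 8.51, 7.95, 9.98 and 8.76 on 0% (0.43 ± 0.60). The stearoyl-CoA desaturase gene scd differed by 1.33 ± 1.1 and the ATP citrate lyase gene aclya by 1.1 ± 0.45, both chosen after their values were seen. Slc13a5a, a citrate transporter gene, differed by 0.10 ± 0.14 with all 10 fish below the array median. No probe set named mlxipl or srebf1 alone.

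**Figure D4:**
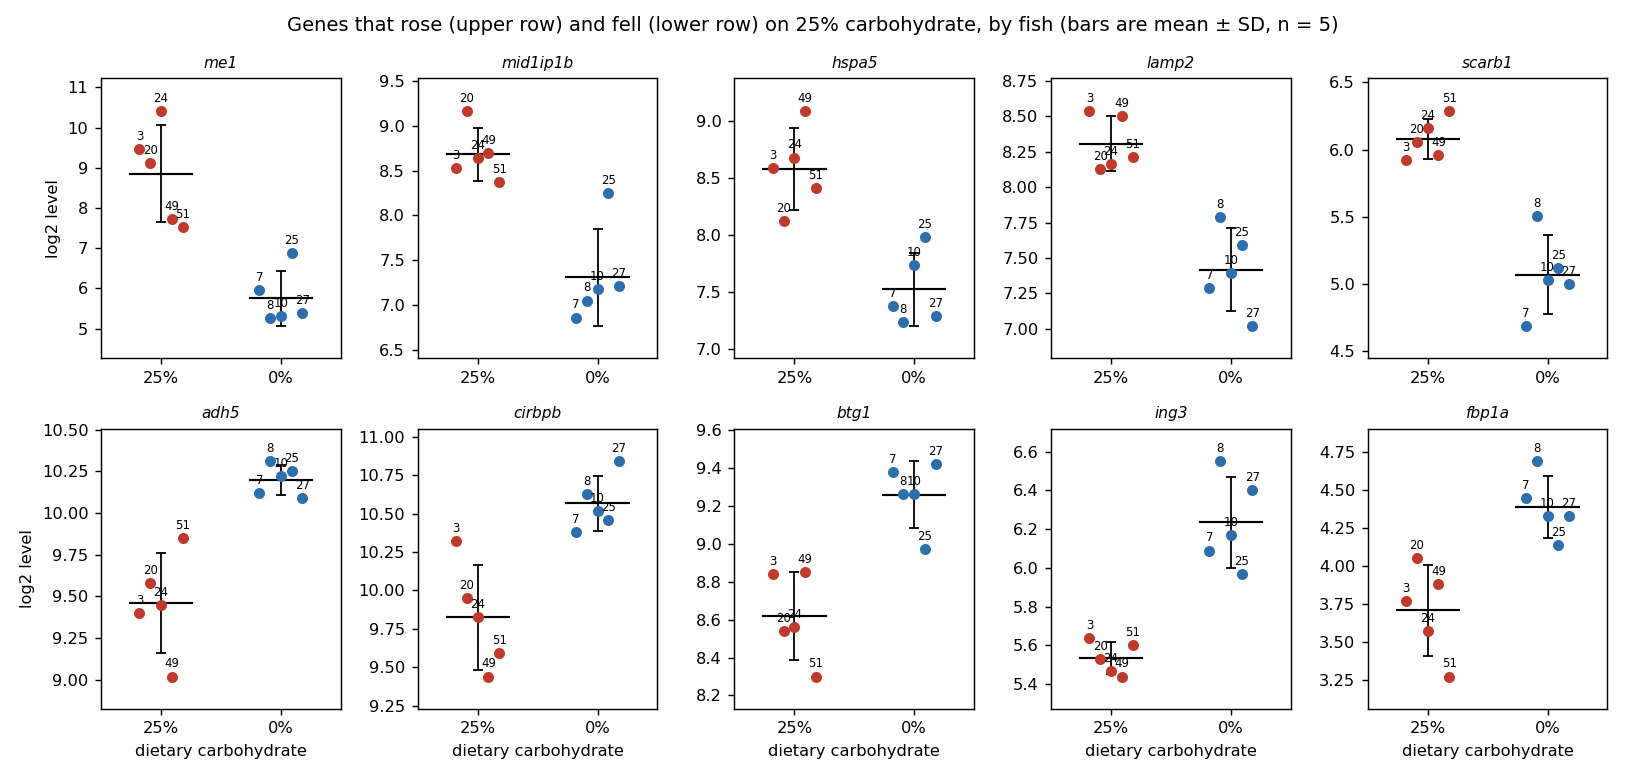
Log2 level (vertical axes, with a separate scale for each gene) of 5 genes that rose and 5 that fell on 25% carbohydrate, in each fish on 25% and on 0%, with fish numbers, group means and SD (n = 5 each). The diet groups do not overlap for any of the 10 genes; me1 spreads most widely among the fish on 25%, and fish 25 on 0% lies close to the 25% group for mid1ip1b.

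Genes of glucose breakdown and synthesis showed few calls, beside 1.98% called higher and 0.239% called lower among all genes. Of 41 glycolysis genes 1 rose, the triosephosphate isomerase gene tpi1a, by 0.52 ± 0.10 (adjusted p = 0.0322) with 4 of the 5 fish on 0% below the array median; the call was lost in 7 of 10 fits that left out 1 fish (highest adjusted p = 0.0902), and the list median was -0.03. Pklr, liver pyruvate kinase, differed by 0.21 ± 0.22. Of 25 gluconeogenesis genes 1 fell. Fbp1a, a fructose bisphosphatase gene, had levels of 3.77, 4.05, 3.57, 3.88 and 3.27 on 25%, against 4.45, 4.69, 4.33, 4.14 and 4.33 on 0%. The groups did not overlap, and the level on 25% was 0.624 of that on 0% (-0.68 ± 0.15, adjusted p = 0.0498). Its mean of 3.71 on 25% lay close to the array medians, with 1 fish on 25% below. The call was lost in 8 of 10 fits that left out 1 fish (highest adjusted p = 0.131) and in 3 of 8 alternative fits that kept all 10 females. The paralogue fbp1b was far brighter, at a mean of 11.44 on 25% and 11.61 on 0%, and differed by -0.16 ± 0.16 (adjusted p = 0.686).

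Phosphoenolpyruvate carboxykinase opens gluconeogenesis. Its cytosolic form, pck1, had levels of 2.54, 4.62, 6.83, 3.34 and 5.50 on 25%, against 2.72, 2.55, 5.31, 2.74 and 2.71 on 0%, with a difference of 1.36 ± 0.81 (adjusted p = 0.48). Most fish on 0% lay below the array median, fish 10 excepted, and on 25% the gene was high in fish 20, 24 and 51. Pck2, the mitochondrial form, differed by -0.01 ± 0.20. Glycogen genes had none of 14 past the test, with a median of -0.06. The binding proteins of insulin-like growth factor varied widely among fish of one diet: igfbp1a differed by 0.04 ± 0.58 and igfbp1b by -0.72 ± 0.76, with neither passing. Within the insulin, growth factor and FOXO list of 67 genes, map1lc3c, an autophagy gene of the LC3 family, rose by 2.17 ± 0.31.

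Some other genes that rose had levels of 7 or more on 0% already. Hspa5, the chaperone BiP of the endoplasmic reticulum, had levels of 8.59, 8.12, 8.68, 9.09 and 8.41 on 25%, against 7.38, 7.24, 7.74, 7.98 and 7.29 on 0%. The diets did not overlap, with fish 49 the highest on 25% and fish 25 the highest on 0%, and the level was 2.07-fold higher on 25% (1.05 ± 0.19, adjusted p = 0.0226). It was the 1 of 99 secretory pathway genes that passed, against 1.98% of all genes called higher, at a list median of 0.07. The hspa5 call was lost without fish 7, 8, 24 or 27 (highest adjusted p = 0.0754) and with the spread estimated from all 17 arrays. The chaperone gene hsp90b1 differed by 0.79 ± 0.26 and calr3b, a calreticulin gene, by 0.88 ± 0.38; neither passed, and both were chosen after their values were seen.

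Lamp2, a membrane protein of the lysosome, had levels of 8.54, 8.13, 8.16, 8.5 and 8.21 on 25%, against 7.29, 7.79, 7.39, 7.59 and 7.02 on 0%. Each fish on 25% exceeded each fish on 0%, and the difference of 0.89 ± 0.15 (adjusted p = 0.0133) kept its call in all 10 fits that left out 1 fish. With ctss2.1 it made 2 of 45 lysosome genes that rose, against 1.98% of all genes, at a list median of 0.04. Scarb1, the scavenger receptor that takes up cholesterol from lipoproteins, had levels of 5.92, 6.06, 6.16, 5.96 and 6.29 on 25%, against 4.69, 5.51, 5.03, 5.12 and 5.00 on 0%. The fish on 25% were closely grouped and lay above all fish on 0%, and the difference was 1.01 ± 0.14 (adjusted p = 0.00626). For both lamp2 and scarb1, fish 8 and fish 25 stood above the other fish on 0%, as for the egg coat genes. A second scarb1 probe set passed too, at 1.36-fold; with the spread estimated from all 17 arrays the call of the first was lost. Among the other genes at 7 or more on 0%, ppa1b, a pyrophosphatase gene, rose by 0.87 ± 0.19 and nipsnap3a by 0.49 ± 0.10; both were chosen after their values were seen.

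Differences of mitochondrial genes were mostly small and mostly above 0. Of 76 oxidative phosphorylation genes 66 had differences above 0, with a median of 0.21, and 2 rose, against 1.98% higher among all genes. These were uqcrc1, a core subunit of complex III, by 0.44 ± 0.09 (adjusted p = 0.0431) and ndufc1, a complex I subunit, by 0.53 ± 0.10 (adjusted p = 0.0235). In 9 of the 76 the groups did not overlap with 25% higher and in 1 with 25% lower, against 3.24% and 1.22% of all genes. That 1, cox4i1l, had the largest difference of the list, -1.19 ± 0.40, without passing (adjusted p = 0.22). It was chosen after its values were seen. The list averaged 8.34, 8.29, 8.64, 8.5 and 8.41 on 25%, against 8.23, 8.26, 8.28, 8.26 and 8.16 on 0%, so that the highest fish on 0% lay just under the lowest on 25%. Of 83 genes of the mitochondrial ribosome and import 70 had differences above 0, with a median of 0.26, and 1 rose, the import gene timm50, by 0.66 ± 0.13. In that list fish 3 and fish 20 on 25% lay within the range of the fish on 0%. The calls of uqcrc1 and timm50 were each lost in 8 of 10 fits that left out 1 fish, with highest adjusted p values of 0.119 and 0.0892, and that of ndufc1 in 6 (0.0717). Of 8 alternative fits that kept all 10 females, uqcrc1 lost its call in 5, ndufc1 in 3 and timm50 in 2. None of 26 citric acid cycle genes (median 0.06) and none of 51 fatty acid oxidation genes (median 0.11) passed. The 73 cytosolic ribosomal protein genes had a median of -0.06, with 13 differences above 0 and none past the test.

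The probe sets that fell had a median level of 4.49 on 25% and 5.36 on 0%, and 1 of the 35 had at least 3 of the 5 levels on 0% under the array median. Adh5, the class III alcohol dehydrogenase that oxidises formaldehyde bound to glutathione, had levels of 9.40, 9.58, 9.45, 9.02 and 9.85 on 25%, against 10.12, 10.31, 10.22, 10.25 and 10.09 on 0%. The fish on 0% kept within 0.3 log2 units of each other and all lay above the fish on 25%, and the level on 25% was 0.598 of that on 0% (-0.74 ± 0.13, adjusted p = 0.0192). The call was lost without fish 7, 10 or 24 (highest adjusted p = 0.0564). Cirbpb, a cold-inducible RNA-binding protein gene, had levels of 10.32, 9.95, 9.83, 9.44 and 9.59 on 25%, against 10.38, 10.63, 10.52, 10.46 and 10.84 on 0%. Fish 3 lay next to the 0% group, and the fall of 0.74 on the log2 scale (adjusted p = 0.0453) was lost in 9 of 10 fits that left out 1 fish (highest adjusted p = 0.124). The cirbpb call was also lost in 3 of 8 alternative fits that kept all 10 females.

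Btg1, an antiproliferative gene that FOXO factors induce in mammals, had levels of 8.84, 8.54, 8.56, 8.85 and 8.30 on 25%, against 9.38, 9.26, 9.26, 8.97 and 9.42 on 0%. Fish 25 was the lowest of the fish on 0%, close to fish 49 and fish 3 on 25%, and the difference was -0.64 ± 0.12 (adjusted p = 0.028). It was lost in 7 of 10 fits that left out 1 fish (highest adjusted p = 0.0876). Ing3, a chromatin reader of acetyltransferase complexes, had levels of 5.64, 5.53, 5.47, 5.44 and 5.6 on 25%, against 6.09, 6.55, 6.17, 5.97 and 6.40 on 0%. The groups lay apart, with the fish on 25% close to each other, and the difference of -0.70 ± 0.11 (adjusted p = 0.0104) was kept in all 10 such fits. Its relative ing2 rose instead, by 0.54 ± 0.11, from levels that lay below the array median in 4 of 5 fish on 0%. That call was lost in 8 of 10 such fits (highest adjusted p = 0.113) and in 2 of 8 alternative fits that kept all 10 females.

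Other genes also fell. Ints1, a subunit of the Integrator complex, fell by 0.58 and nbr1a, an autophagy receptor gene, fell by 0.48 on the log2 scale, and both calls were kept in all 10 fits that left out 1 fish; that of nbr1a was lost with the spread estimated from all 17 arrays. Vbp1, a prefoldin subunit, fell by 0.53 (adjusted p = 0.0417) and its second probe set fell by 0.50. The elongation factor gene tcea3 fell by 0.52, the nucleosome-binding protein gene hmgn6 by 0.70 and kptn by 0.48. The F-box gene fbxl3b, related to the mammalian regulator of cryptochromes, fell by 0.38. It was the 1 of 32 clock genes that passed, against 0.239% lower among all genes. The calls of vbp1, hmgn6, kptn and hand2 were each lost in 9 of 10 fits that left out 1 fish and those of tcea3 and fbxl3b in 7. The highest adjusted p was 0.125, for hand2. With all 10 females kept, hand2, kptn and fbxl3b each lost the call in 4 of 8 alternative fits. Vbp1 and hmgn6 each lost it in 2 of these and tcea3 in 1. Mdh1aa, a cytosolic malate dehydrogenase gene chosen after its values were seen, differed by -0.52 ± 0.13 by its brightest probe set (adjusted p = 0.0915) and by -0.63 ± 0.12 by another (adjusted p = 0.0235).

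Yolk genes showed no call on either side. None of 10 genes of yolk and oestrogen response passed; 9 of the 10 differences were below 0, and the median was -0.11. The list mean was 9.47 ± 0.17 on 25% and 9.61 ± 0.06 on 0% (SD, n = 5 each). Vtg2, a vitellogenin gene, had levels of 13.78, 13.88, 13.05, 13.81 and 13.85 on 25%, against 13.87, 13.89, 13.77, 13.84 and 13.93 on 0%, with fish 24 standing below all others. Most of these levels lay close to 14.22, the highest value on the female arrays, and saturation of the signal was not tested. Vtg3 differed by -0.53 ± 0.30 and was also lowest in fish 24, at 10.71. The oestrogen receptor gene esr1 had levels of 7.31, 7.60, 6.94, 7.10 and 6.80 on 25%, against 7.41, 8.13, 7.79, 7.88 and 7.12 on 0%. Its groups overlapped and the difference of -0.52 ± 0.21 did not pass (adjusted p = 0.289). Nots, the aspartic protease nothepsin of the female liver, differed by -0.02 ± 0.27.

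The fish on 25% also differed among themselves in liver genes, a comparison made after their values were seen. Fish 49 and fish 51 had the lowest hepatocyte list means of that diet, at 10.53 and 10.51, against 10.67 to 10.80 in fish 3, 20 and 24. On 0% these means ran from 10.52 to 10.73, so the 2 fish lay near the low end of that group. Fish 49 and fish 51 were also the lowest on 25% for xenobiotic and bile acid genes, at 5.14 and 5.25, for me1, and for pck2, at 8.63 and 8.74. Fish 49 had the highest leukocyte list mean of all 10 fish, 5.36, and the highest lysosome list mean, 6.19. The array weights estimated from the fit were lowest for fish 24 (0.696), fish 49 (0.737) and fish 51 (0.777) and highest for fish 20 (1.43). With these weights 234 probe sets passed, 231 of them shared with the unweighted fit.

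Genes of the remaining lists had a share of calls near that of all genes, of which 1.98% were higher and 0.239% lower. Of 146 splicing and RNA helicase genes 4 rose and 1 fell, among them hnrnpabb at 1.68 ± 0.28, lsm14b at 0.71 ± 0.11 and snrpb2 at 0.64 ± 0.07. Lsm14b is also in the oocyte and germ cell list, as is h1m, which is among the histone and chromatin genes that rose. Of 73 histone and chromatin genes 2 rose and 1 fell, and of 70 cytoskeleton genes 2 rose, with the tubulin gene tuba4l at 2.03 ± 0.20. Of 69 translation genes 2 rose, eif4e1b at 0.75 ± 0.10 and eef1a1l3 at 0.63 ± 0.12. For eif4e1b all 5 fish on 0% were below the array median. One gene rose among 80 of the proteasome and ubiquitin system, uchl1, a ubiquitin hydrolase, by 1.89 ± 0.23. One gene rose in each of the heat shock list (dnajb1b, 0.55 ± 0.10, of 48) and the amino acid catabolism list (gcsha of the glycine cleavage system, 0.55 ± 0.11, of 63). The calls of eef1a1l3, dnajb1b and gcsha were each lost in 6 of 10 fits that left out 1 fish (highest adjusted p = 0.0813, 0.077 and 0.0928), and those of hnrnpabb (0.0505) and mpv17 (0.0519) in 1. Dnajb1b and gcsha each also lost the call in 1 of 8 alternative fits that kept all 10 females. None passed among 64 xenobiotic and bile acid genes or 43 antioxidant genes. Of the 174 genes that rose, 97 were in none of the 36 lists, and of the 21 that fell 6 were in a list. Among the largest named rises, si:dkey-90l23.1 stood first at 3.32 ± 0.32 with all 5 fish on 0% below the array median, and mpv17, an inner mitochondrial membrane protein gene, stood at 2.98 ± 0.51 by a probe set whose suffix marks a design shared by transcripts of a gene.

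**Figure D5:**
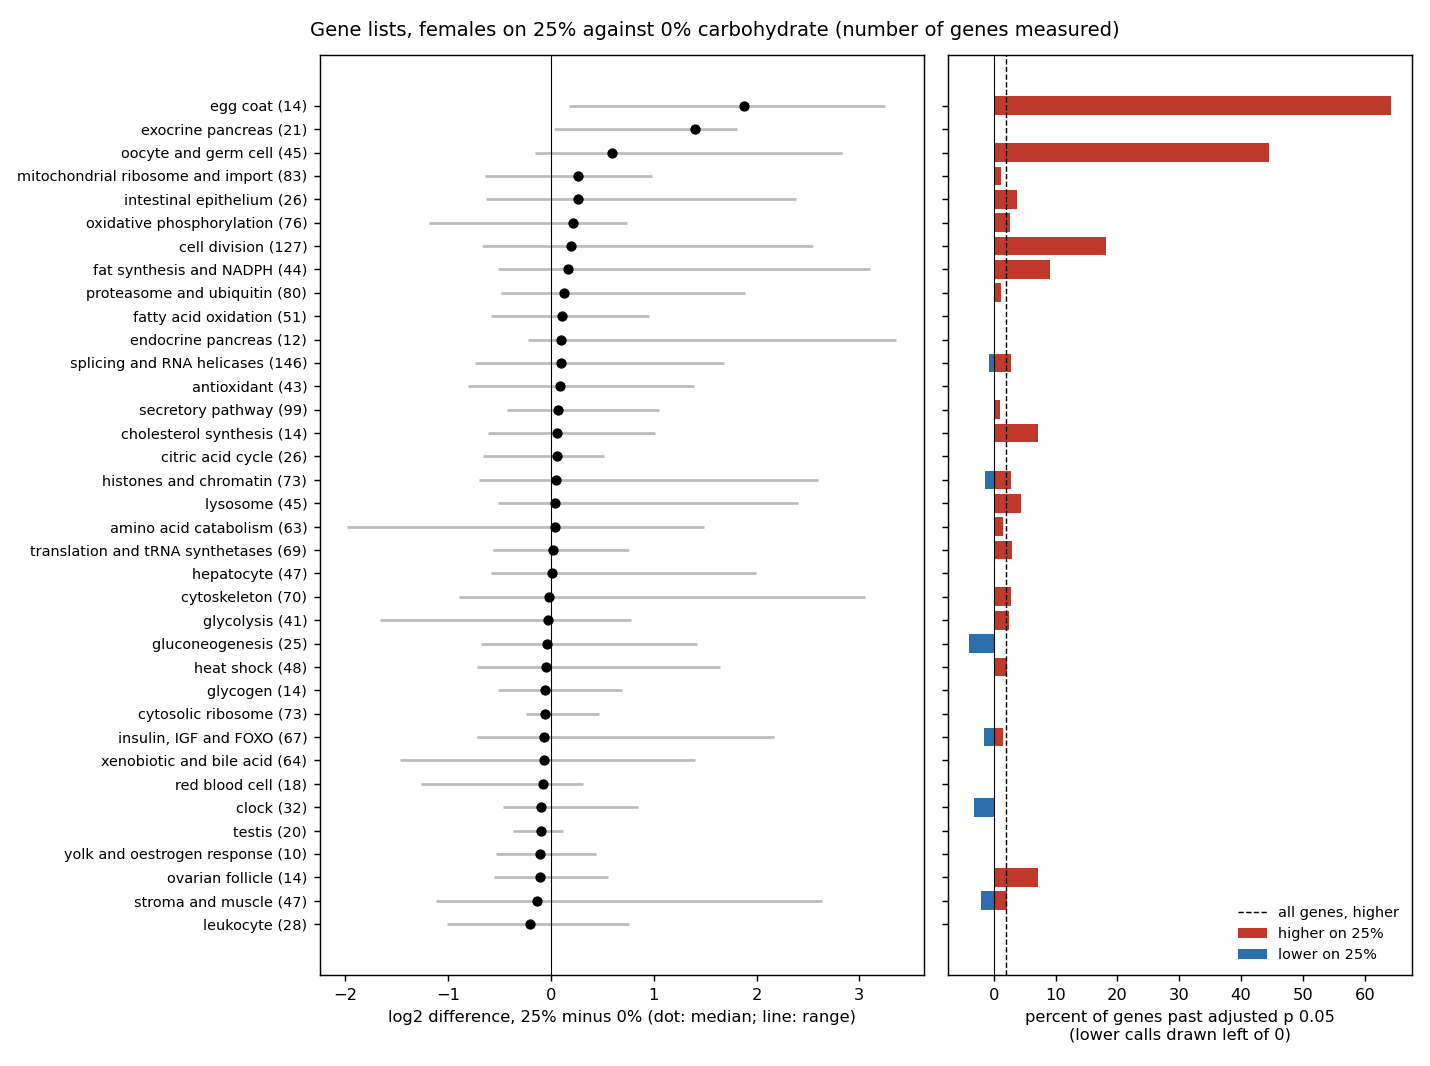
Left, the median (dot) and range (line) of the log2 differences, 25% minus 0%, of the measured genes of 36 lists; right, the percent of each list's genes past an adjusted p of 0.05, with higher calls drawn right of 0 and lower calls left of it, and the percent of all genes called higher, 1.98%, as a dashed line. The egg coat, oocyte and cell division lists have the largest shares of higher calls, and the exocrine pancreas list has a median of 1.4 with no calls.

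The called probe sets were not independent measurements. On the array 72 of them fell into 24 design clusters that held more than 1 called probe set, and 8 of these clusters carried more than 1 symbol. Probe sets with a suffix for designs that match several transcripts made up 46 of the 262 rises (17.6%), against 5.9% of all probe sets tested. Without such probe sets 231 were called.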

How the data were processed

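Liver RNA of single zebrafish was hybridised to Affymetrix zebrafish arrays. The deposited table holds 1 value per probe set and array; the authors' values are log2 signals, a base inferred from their range of 1.82 to 14.22 on the female arrays. The methods RMA, GCRMA, PLIER and MAS5 are listed in the submitters' processing notes with no role, so the background correction and the treatment of dim probes are unknown. The number of arrays limits the precision. Of 15617 probe sets 115 controls were left out. By the platform annotation 10795 of the others had 1 symbol, 135 several and 4572 none; 10711 were matched by Entrez ID and 1 symbol was updated.

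The 10 female arrays were fitted with limma 3.58.1 in R 4.3.3 (lmFit, eBayes) on the values as deposited, and p-values were adjusted by Benjamini-Hochberg over 15502 probe sets. The model was tested on simulated data. Lists took each gene's brightest probe set and were not tested as sets. The groups, lists and named genes were chosen with earlier results of these data known. Named genes were the 12 largest rises and 12 largest falls with 1 symbol, up to 3 called members of each list in each direction, and a set always given; genes named outside this rule are said to be. Alternatives were all 17 arrays (males by the labels, 3 on 25% and 4 on 0%, numbers that the series description gives the other way round), quantile normalization, centring on array medians, the brighter part of the probe sets, trend and robust eBayes, array weights, averaged probe sets, a 2-fold minimum and leaving out each fish; leaving out probe sets with a design suffix was chosen after seeing the data.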

Additional observations from a re-analysis of the deposited data

Results flagged for a closer look

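Each value below lay far from the other 4 fish of its group by Dixon's test. Of 226 groups of 5 examined 10 did so, against 11.3 by chance at 1 in 20. On 0%, fish 25 stood above the others for mid1ip1b (8.25, next 7.21) and ing2 (3.69, next 3.37) and below them for nots (10.13, next 10.93) and the yolk and oestrogen list mean (9.51, next 9.61). On 0%, fish 8 stood above the others for eif4e1b (3.28, next 3.2) and fish 10 for pck1 (5.31, next 2.74). On 25%, fish 49 stood above the others for slc13a5a (3.12, next 2.5), the leukocyte list mean (5.36, next 4.44) and the cytoskeleton list mean (5.88, next 5.57), and fish 24 stood below them for vtg2 (13.05, next 13.78).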

How the results depend on the processing

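The count of called probe sets, 297 with 262 higher and 35 lower on 25%, ranged from 136 to 319 in total, 128 to 276 higher and 8 to 60 lower over the 10 fits that left out 1 fish, and cell division genes higher on 25% ranged from 11 to 28. A 2-fold minimum left 168, 166 higher and 2 lower. Totals under the other alternatives were 231 (without probe sets with a design suffix) to 325 (all 17 arrays), with 231 and 241 shared with the 297. No called difference reversed direction among the results recomputed. The sign of small differences that did not pass, such as those of pck2 and nots, depended on the fish included. Of 58 named genes called, 30 kept the call in all 10 fits that left out 1 fish, 28 lost it in at least 1 and 22 in 5 or more. Fewer fish were tested there. Some of these genes also lost the call in alternative fits that kept all 10 females, such as uqcrc1 in 5 of 8. Others, such as btg1 and tpi1a, kept it in all 8. The cause of the losses was not tested. No paired analysis was possible because the diet groups share no fish number. The table gives no probe-level signal over background, which limits the sizes of differences from dim levels.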
